A study of Mus musculus with 48 samples.

Results

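The genes described here are 39 genes of DNA replication and the G1/S transition. They were chosen by name from the pathway, with earlier results of these data known. All 39 were found among the 24010 genes of the FPKM table. The libraries hold poly(A) RNA of mouse embryonic fibroblasts (MEFs) before induction and of cells that had been reprogrammed with doxycycline (1 µg/ml) for 3, 6, 9, 12 or 15 days. The MEFs carry *Rosa26*-M2rtTA, the *Col1a1*-4F2A cassette of *Oct4*, *Sox2*, *Klf4* and *c-Myc* (OSKM) and an *Oct4*-GFP reporter, so every group shares these transgenes, and all groups but MEF were induced and kept in ES medium with LIF. On each day 3 arms were sampled: *Mettl3* OE and *Mettl14* OE, which overexpress a subunit of the m6A methyltransferase complex, and Control OE, which received the empty vector. With MEF this gives 16 groups of 3 libraries, 48 in all. Whether replicates came from separate cultures is not given in the sources used here, so the p-values cover the spread among the libraries at hand, which may be technical.

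A cell licenses its replication origins in late mitosis and G1, when CDC6 and CDT1 help to load the MCM2 to MCM7 helicase onto DNA, and fires them in S phase, when GINS and MCM10 take part in turning the helicase on. Primase and the replicative polymerases then copy the strands, with the PCNA clamp, its RFC loader and the single-strand binding protein RPA. Many of these genes are transcribed at the G1/S boundary by E2F factors, which cyclin E and its kinase help to release from the retinoblastoma protein, and pluripotent stem cells are known for a short G1 phase.

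The overexpressed genes matched the labels. *Mettl3* lay at 1078 to 2919 FPKM in the 15 *Mettl3* OE libraries, against 3.335 to 6.79 FPKM in the 33 others, and *Mettl14* at 184.5 to 476 FPKM in the 15 *Mettl14* OE libraries, against 4.3 to 7.47 FPKM elsewhere. Each library held an estimated 12.97 to 36.68 M fragments (median 22.98), by a count back from the lowest FPKM of each library. MEF expressed its fibroblast markers (*Thy1* at 31.8 to 36.65 FPKM), and each of 10 pluripotency markers was under 1 FPKM there. The 10 fibroblast markers summed to 214 to 226 FPKM in MEF, 80.3 to 81.9 FPKM in Control OE on day 3 and 2848 to 3269 FPKM in Control OE on day 15, where the 10 pluripotency markers summed to 32.3 to 44.4 FPKM; these days stand in different tables of the file. These are bulk libraries, in which fewer cells of a type and less RNA per cell cannot be told apart. The deposited file joins 3 tables (MEF and day 3, days 6 and 9, days 12 and 15), and no test of a step crosses their borders. The comparisons of late with early effects do set different tables against each other. In 3 groups a library stood apart at the high end of these genes: *Mettl14* OE day 9 replicate 2 was the highest of its 3 libraries in 39 of 39 genes, and *Mettl3* OE day 6 replicate 1 and Control OE day 6 replicate 1 were in 38 of 39 each. Over all genes these 3 libraries were the highest in 64.7%, 45.3% and 67.9%. At the low end, Control OE day 12 replicate 2 was the lowest of its 3 libraries in 32 of 39 genes and in 76.7% of all genes. *Mettl3* OE day 6 replicate 3 was the lowest in 31 of 39 genes and in 44.3% of all genes.

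FPKM values are fragments per kilobase of transcript, scaled to the mapped fragments of the library, so levels can be compared between genes, though only roughly. Over all 48 libraries the highest mean level was that of *Pcna*, the sliding clamp (39.6 FPKM), followed by *Rrm2* (26.9 FPKM), a subunit of ribonucleotide reductase, the helicase subunit *Mcm6* (23.8 FPKM), the other reductase subunit *Rrm1* (22.3 FPKM) and *Mcm7* (20.03 FPKM). The lowest were the licensing factor *Cdc6* (1.04 FPKM), the cyclin E gene *Ccne2* (1.54 FPKM) and *Pole*, the catalytic subunit of polymerase epsilon (2.42 FPKM). These means pool days with different levels and all tables of the file, between which the genes differed unequally. Day 6 minus day 3 in Control OE was 1.72 for *Mcm5* and -0.11 for *Mcm2* on the log2 scale. *Rrm2* had 11.6, 12.1 and 12.2 FPKM in Control OE on day 15, where *Mcm6*, *Mcm7*, *Rrm1* and *Rpa1* had higher means, and 59.4, 49.1 and 48.8 FPKM on day 6. *Mcm10* averaged less than *Pole* on day 15 in each arm. *Cdc6* was too low to be tested on days 12 and 15, and *Ccne2* on day 3, so 38 of the 39 genes were tested on those days. *Pcna* and *Tyms*, which encodes thymidylate synthase, have processed pseudogenes that could share reads with them. Exons of 12 of the 39 genes overlap a gene of the opposite strand (*Ccne2*, *Chaf1a*, *Fen1*, *Gins2*, *Lig1*, *Mcm7*, *Pole*, *Rfc2*, *Rfc4*, *Rfc5*, *Slbp* and *Tk1*). The kit marks strand, but whether the counting used it is not given in the sources used here, and these values are uncertain to that extent.

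Promoter sequences are shown for 4 genes that carry results below and hold an E2F site. A RefSeq window (GRCm38.p6), from 250 bases before to 50 bases after the start site, was found for 31 of the 39 genes, with 35 windows in all. An E2F site, searched on both strands as TTTCCCGC, TTTCGCGC, TTTGCCGC or TTTGGCGC, was in 10 of the 35 windows (28.6%), against 2.26% of all 32851 windows. The 10 windows are of *Mcm3*, *Mcm5*, *Mcm6*, *Mcm7*, *Cdt1*, *Cdc6*, *Pola1*, *Pold1*, *Rfc3* and *Lig1*. A CCAAT box, searched on both strands, was in 19 of the 35 (54.3%), against 37.4% of all windows, and the CHR element known from mitosis genes (TTTGAA or TTCGAA) in 4 (11.4%), against 19.2%. A match describes only the letters in the window. Sequences run 5′ to 3′ on the strand of the gene with E2F matches in capitals, and in *Mcm5* the capitals are a pair of overlapping matches on opposite strands.
Mcm3, chr1:20820263-20820562, minus strand: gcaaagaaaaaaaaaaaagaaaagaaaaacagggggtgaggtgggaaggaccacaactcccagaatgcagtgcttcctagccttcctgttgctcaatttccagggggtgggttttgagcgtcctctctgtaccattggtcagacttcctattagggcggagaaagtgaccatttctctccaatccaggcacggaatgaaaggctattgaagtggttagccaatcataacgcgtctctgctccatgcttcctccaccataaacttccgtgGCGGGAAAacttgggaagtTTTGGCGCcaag
Mcm5, chr8:75109259-75109558, plus strand: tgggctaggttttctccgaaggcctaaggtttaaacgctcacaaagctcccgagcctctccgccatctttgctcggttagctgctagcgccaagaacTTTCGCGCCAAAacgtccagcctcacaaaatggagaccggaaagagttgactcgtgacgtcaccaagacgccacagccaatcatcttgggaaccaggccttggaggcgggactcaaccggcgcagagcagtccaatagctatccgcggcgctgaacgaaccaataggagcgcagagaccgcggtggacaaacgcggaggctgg
Mcm7, chr5:138171834-138172133, minus strand: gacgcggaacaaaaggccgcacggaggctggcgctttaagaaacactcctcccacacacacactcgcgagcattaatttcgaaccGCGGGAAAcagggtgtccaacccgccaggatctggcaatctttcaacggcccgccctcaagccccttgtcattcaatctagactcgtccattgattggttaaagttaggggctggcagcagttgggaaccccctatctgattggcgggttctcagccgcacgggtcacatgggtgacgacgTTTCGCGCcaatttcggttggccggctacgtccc
Pold1, chr7:44548766-44549065, minus strand: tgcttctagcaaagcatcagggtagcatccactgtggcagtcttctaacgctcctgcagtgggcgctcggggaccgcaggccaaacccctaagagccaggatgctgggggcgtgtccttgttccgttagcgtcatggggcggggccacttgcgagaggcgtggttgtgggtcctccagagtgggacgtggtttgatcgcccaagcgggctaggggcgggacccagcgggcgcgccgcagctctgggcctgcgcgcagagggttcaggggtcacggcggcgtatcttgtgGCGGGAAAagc

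On day 15 the replication genes were lower in *Mettl3* OE than in Control OE, and the origin licensing genes led. The late days of this arm were examined knowing that these genes look lower there in the same libraries. The p-values are therefore a description of that pattern and no independent support for it. Of 38 genes tested 19 were lower at an adjusted p under 0.05 and 0 were higher, where 12.1% of all 12134 genes tested were lower and 2.67% higher (limma on log2(FPKM + 1), Benjamini-Hochberg over all genes). The median difference of the 38 was -0.29 on this log2 scale, against -0.084 over all genes, and 35 of the 38 were negative. In 27 of the 38 every *Mettl3* OE library lay below every Control OE library, where 27.8% of all genes did so.

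The largest difference was in *Mcm5*, a subunit of the helicase. It lay at 2.602, 3.37 and 2.87 FPKM in *Mettl3* OE, against 6.02, 5.27 and 6.39 FPKM in Control OE on day 15 (-0.81, SE 0.105, adjusted p = 0.000395). The highest *Mettl3* OE library was thus well under the lowest Control OE library. *Mcm7*, another subunit, had 9.47, 10.5 and 10.2 FPKM in *Mettl3* OE, against 16.98, 14.3 and 17.6 FPKM in Control OE (-0.64, SE 0.095, adjusted p = 0.000985). For *Mcm3* the values were 4.34, 4.096 and 4.115 FPKM in *Mettl3* OE, against 6.703, 5.99 and 8.05 FPKM in Control OE (-0.60, SE 0.113, adjusted p = 0.00401). For *Mcm2* they were 5.35, 5.51 and 5.42 FPKM in *Mettl3* OE, against 8.22, 7.975 and 10.1 FPKM in Control OE (-0.60, SE 0.101, adjusted p = 0.00219). These 4 subunits were the members that also passed a fold change of 1.5, as 1.48% of all genes did in this direction, and in none of them did the groups overlap.

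**Figure D1:**
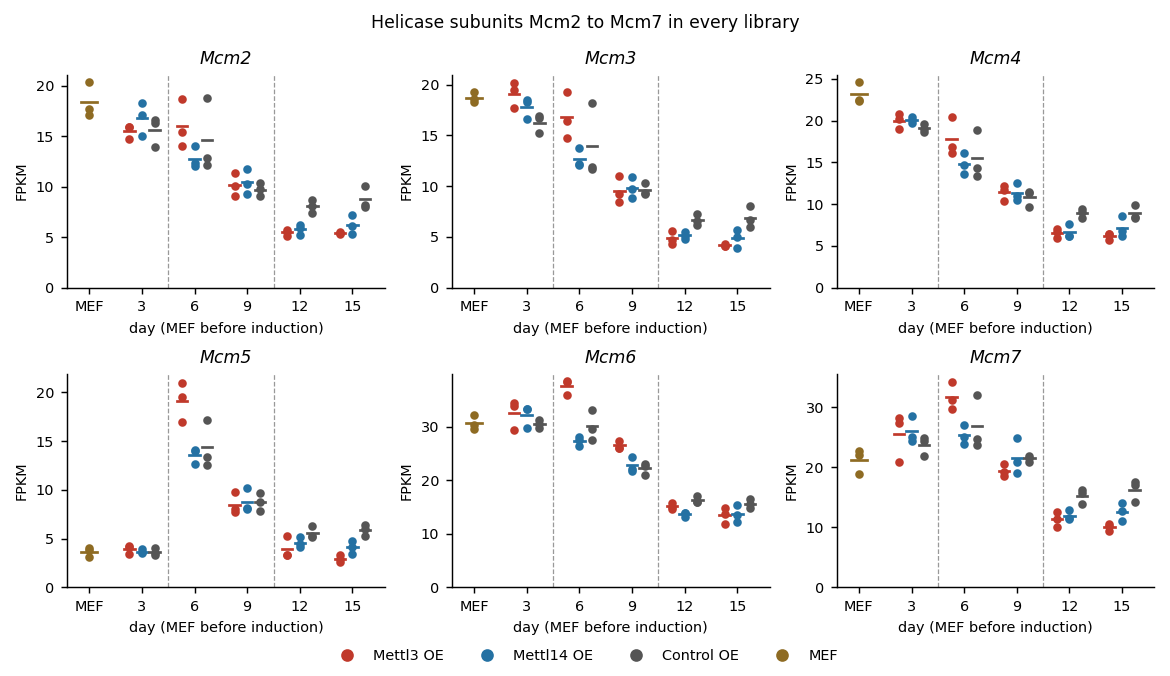
FPKM of *Mcm2* to *Mcm7* (y axes, from 0) in MEF and on days 3 to 15 (x axis) for *Mettl3* OE, *Mettl14* OE and Control OE, with a point for each library and a bar for the mean of 3; dashed lines mark where the tables of the file join. On day 15 the *Mettl3* OE libraries of *Mcm5* sit between 2.602 and 3.37 FPKM, below the 5.27 to 6.39 FPKM of Control OE, while on day 6 they sit between 17 and 20.9 FPKM, against 12.6 to 17.2 FPKM in Control OE.

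The helicase subunits did not differ by the same amount. *Mcm4* was lower by less (-0.45, SE 0.103, adjusted p = 0.0108). *Mcm6*, the subunit with the highest mean over all 48 libraries, had 11.8, 14.9 and 13.7 FPKM in *Mettl3* OE, against 15.7, 14.9 and 16.4 FPKM in Control OE, and its difference of -0.21 did not pass the test. Summed over the 6 subunits the level was 42.3 ± 2.82 FPKM in *Mettl3* OE and 62.4 ± 5.83 FPKM in Control OE (SD, n = 3 each). Of that sum *Mcm5* made up 6.94 ± 0.492% in *Mettl3* OE and 9.44 ± 0.2475% in Control OE, and *Mcm6* 31.8 ± 1.605% in *Mettl3* OE and 25.2 ± 1.09% in Control OE. These shares were not tested. The licensing factor *Cdt1*, which helps to load the helicase, was lower as well, with 3.55, 2.99 and 4.15 FPKM in *Mettl3* OE, against 4.98, 4.46 and 6.09 FPKM in Control OE (-0.44, SE 0.113, adjusted p = 0.0204).

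Among the genes that start and extend the fork, 2 of the 4 helicase activation genes were lower in *Mettl3* OE on day 15. *Mcm10*, which takes part in opening the origin, had 0.891, 0.817 and 1.02 FPKM in *Mettl3* OE, against 1.75, 1.46 and 1.895 FPKM in Control OE (-0.50, SE 0.118, adjusted p = 0.0122). *Gins1*, a subunit of the GINS complex, fell by 0.40 on the log2 scale (adjusted p = 0.0267), while *Gins2* (-0.046) and *Gins4* (-0.041) did not pass. *Gins4*, which has the highest mean of the 4 over all 48 libraries, had 9.28, 10.75 and 8.68 FPKM in *Mettl3* OE, against 10.1, 9.91 and 9.53 FPKM in Control OE. Of the 6 clamp and clamp loader genes *Rfc5* passed, with 4.76, 4.38 and 3.58 FPKM in *Mettl3* OE, against 6.595, 5.55 and 6.703 FPKM in Control OE (-0.48, SE 0.097, adjusted p = 0.00588). *Pcna* had 25.6, 27.8 and 25.9 FPKM in *Mettl3* OE, against 31.55, 31.95 and 29.1 FPKM in Control OE, without overlap, but its difference of -0.215 did not pass.

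Of the 6 polymerase and primase genes 4 were lower: *Pole* (-0.34), the polymerase alpha subunits *Pola2* (-0.33) and *Pola1* (-0.30), and *Pold1* (-0.28), the catalytic subunit of polymerase delta. The primase subunits *Prim1* (-0.042) and *Prim2* (-0.14) did not pass, with *Prim2* at 4.29, 4.44 and 3.799 FPKM in *Mettl3* OE, against 4.63, 4.299 and 5.16 FPKM in Control OE. Of the RPA subunits, *Rpa1* had 11.5, 11.8 and 11.35 FPKM in *Mettl3* OE, against 13.9, 13.3 and 16.1 FPKM in Control OE and was lower (-0.295), as was *Rpa2* (-0.35), while *Rpa3* did not pass (0.059). *Lig1*, the ligase that seals Okazaki fragments, was lower (-0.345). The flap endonuclease *Fen1*, which trims them, had 3.24, 3.13 and 2.92 FPKM in *Mettl3* OE, against 4.41, 3.696 and 4.92 FPKM in Control OE without passing (-0.38). Both subunits of ribonucleotide reductase were lower (*Rrm2* -0.35 and *Rrm1* -0.26), and *Tk1*, the thymidine kinase of the salvage pathway (0.037), and *Tyms* (-0.20) did not pass.

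None of the 3 G1/S regulators passed in this comparison. *E2f1*, a transcription factor that drives S phase genes, had 6.94, 6.95 and 6.28 FPKM in *Mettl3* OE, against 5.86, 6.54 and 7.68 FPKM in Control OE on day 15, with overlapping groups (0.012). The cyclin E genes *Ccne1* (-0.23) and *Ccne2* (-0.185) did not pass either. *Chaf1b*, a subunit of the chromatin assembly factor CAF-1 that places histones on new DNA, was lower (-0.33, adjusted p = 0.0486), while its partner *Chaf1a* (-0.22) and *Slbp*, which binds the stem-loop of histone mRNA (-0.17), did not pass.

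The count on day 15 rested in part on single libraries. It was 8 without Control OE replicate 3, 9 without Control OE replicate 1, and 11 without *Mettl3* OE replicate 1 or replicate 3, and 11 and 12 with median-ratio scaling and quantile normalization. On the same day 7 of 8 tested pluripotency markers were lower in *Mettl3* OE (the 10 summed to 10.8 to 15.4 FPKM, against 32.3 to 44.4 FPKM in Control OE), and 4 of 10 fibroblast markers were lower (2194 to 2655 FPKM, against 2848 to 3269 FPKM). Of 10 epithelial markers 2 were higher (978 to 1174 FPKM, against 977 to 1100 FPKM), and 1 of 6 tested macrophage markers was lower (20.3 to 24.2 FPKM, against 28.97 to 46.7 FPKM). Of 7 tested keratinocyte markers 1 was higher (627 to 766 FPKM, against 527 to 870.5 FPKM). The part of these cell markers in the result was not tested.

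On day 12 the direction was the same, with fewer calls, and the p-values carry the limit given for day 15. Of 38 genes tested 5 were lower in *Mettl3* OE than in Control OE and 0 were higher, where 2.51% of all genes were lower and 2.96% higher, and the median was -0.14, against -0.001 over all genes. *Mcm2* had 5.53, 5.16 and 5.72 FPKM in *Mettl3* OE, against 8.71, 7.36 and 8.097 FPKM in Control OE (-0.48, SE 0.084, adjusted p = 0.0103). *Mcm7* had 11.4, 10.1 and 12.6 FPKM in *Mettl3* OE, against 16.3, 13.9 and 15.7 FPKM in Control OE (-0.40, SE 0.094, adjusted p = 0.0321). The called genes were 4 helicase subunits and *Fen1*, and their groups did not overlap. Summed over *Mcm2* to *Mcm7* the level was 47.3 ± 3.39 FPKM in *Mettl3* OE and 60.8 ± 3.62 FPKM in Control OE (SD, n = 3 each). In *Mettl14* OE it was 47.8 ± 3.14 FPKM, so a lower sum was seen in both arms. The sums were not tested. *Mcm4* had 5.93, 6.62 and 7.08 FPKM in *Mettl3* OE, against 9.375, 8.29 and 9.02 FPKM in Control OE (-0.39), and *Mcm3* had 4.28, 4.697 and 5.61 FPKM in *Mettl3* OE, against 7.25, 6.15 and 6.59 FPKM in Control OE (-0.39). *Fen1* was at 3.63, 3.84 and 3.65 FPKM in *Mettl3* OE, against 4.78, 4.44 and 4.885 FPKM in Control OE (-0.28). In *Mcm5* a *Mettl3* OE library overlapped Control OE (3.303, 3.36 and 5.23 FPKM in *Mettl3* OE, against 6.34, 5.22 and 5.304 FPKM in Control OE), and its difference of -0.43 did not pass. The count was 10 without Control OE replicate 2, 1 without Control OE replicate 1, Control OE replicate 3 or *Mettl3* OE replicate 2, and 0 without *Mettl3* OE replicate 1, and it was 8 with median-ratio scaling or quantile normalization and 1 with no filter on low values. Of 4 tested pluripotency markers 3 were lower (6.48 to 10.7 FPKM, against 11.65 to 22.5 FPKM in Control OE), 1 of 10 fibroblast markers was higher (2056 to 2309 FPKM, against 1774 to 2505 FPKM) and 1 of 4 macrophage markers was higher (11.4 to 12.7 FPKM, against 11.04 to 14.1 FPKM). Their part in the result was not tested.

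**Figure D2:**
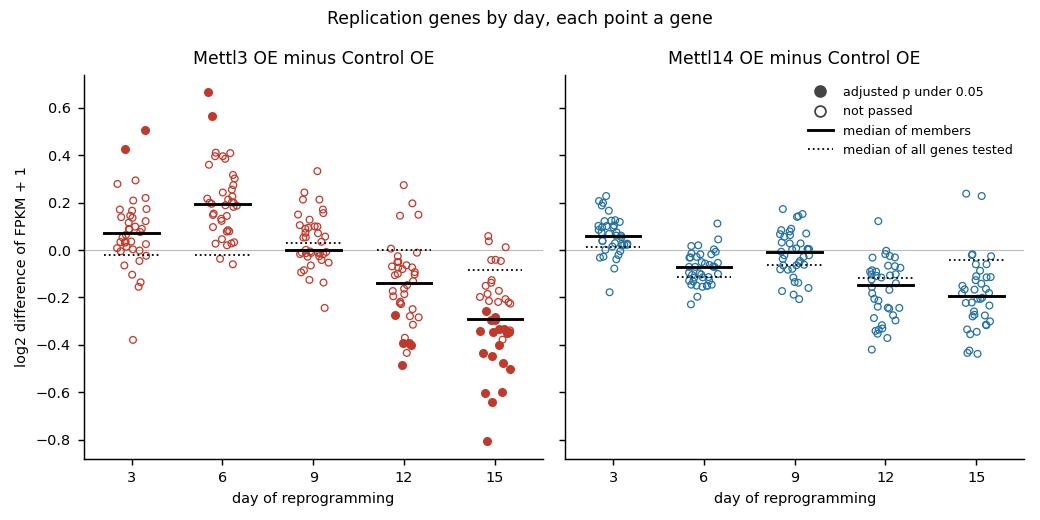
Difference from Control OE (y axis, log2 of FPKM + 1) of each of the 38 or 39 genes tested (points) on days 3 to 15 (x axis), for *Mettl3* OE (left) and *Mettl14* OE (right); filled points passed an adjusted p of 0.05, and the solid and dotted lines are the medians of these genes and of all genes tested. In *Mettl3* OE the medians run 0.070, 0.195, 0.001, -0.14 and -0.29 over the 5 days, and the third, on day 9, is -0.021 under median-ratio scaling.

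On the early days the replication genes were not lower in *Mettl3* OE. On day 6, 37 of 39 differences from Control OE were positive, with a median of 0.195, against -0.021 over all genes, and 2 genes were called higher and 0 lower, where 1.89% of all genes were higher and 2.43% lower. *Chaf1b* had 10.2, 8.18 and 8.49 FPKM in *Mettl3* OE, against 7.17, 4.33 and 4.597 FPKM in Control OE (0.67, SE 0.149, adjusted p = 0.0393). *Tk1* had 33.7, 32.05 and 30.1 FPKM in *Mettl3* OE, against 27.25, 18.9 and 18.5 FPKM in Control OE (0.57, SE 0.133, adjusted p = 0.0446). In both genes the groups were apart, with Control OE replicate 1 nearest to *Mettl3* OE. The count of higher genes was 7 with median-ratio scaling, 8 with quantile normalization, 8 with the replicate number as a block, 9 with all 48 libraries in the fit and 0 with no filter on low values. *Mcm5* stood at 20.9, 19.5 and 17 FPKM in *Mettl3* OE, against 17.2, 12.6 and 13.4 FPKM in Control OE, which overlap (0.40, not passed).

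Every *Mettl3* OE library was above every Control OE library on day 6 in 7 of the 39 genes, where 13.1% of all genes were. Without Control OE replicate 1, 12 genes were higher (median 0.327). Without *Mettl3* OE replicate 1, which stood apart as well, 0 were (median 0.13). Without any single other library of these arms 0 were higher too. Epithelial markers were higher in *Mettl3* OE on that day in 4 of 10 (547 to 764 FPKM summed, against 384 to 476 FPKM in Control OE), and fibroblast markers lower in 2 of 9 tested (491 to 801 FPKM, against 1004 to 1308 FPKM). Of 6 tested keratinocyte markers 1 was higher (529 to 849 FPKM, against 287.5 to 476 FPKM). Their part in the result was not tested.

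On day 3 *Chaf1a* and *Fen1* were higher in *Mettl3* OE and 0 genes were lower. Of all 9863 genes tested 3.54% were higher and 5.96% lower, so 2 of 38 is near the share of all genes that were higher. *Chaf1a* had 17.2, 16.8 and 14.8 FPKM in *Mettl3* OE, against 11.8, 9.78 and 11.96 FPKM in Control OE (0.51, SE 0.088, adjusted p = 0.00562). *Fen1* had 24.9, 22.4 and 19.3 FPKM in *Mettl3* OE, against 15.8, 15.5 and 17.3 FPKM in Control OE (0.43, SE 0.093, adjusted p = 0.0169). Neither pair of groups overlapped, and the count was 1 without Control OE replicate 1, Control OE replicate 2 or *Mettl3* OE replicate 1. Of 5 tested fibroblast markers 3 were lower (56.7 to 59.4 FPKM, against 80.3 to 81.9 FPKM in Control OE), and their part was not tested. On day 9 limma called 0 of the 39 genes higher and 0 lower, where 5.24% of all genes were higher and 4.10% lower. At an unadjusted p under 0.05, 1 of the 39 was higher and 1 lower, and 20 of the 39 differences were positive.

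Whether the *Mettl3* OE effect itself differed between the late and the early days was tested in a single fit over all 48 libraries, as the mean effect on days 12 and 15 minus the mean effect on days 6 and 9. Each effect is a difference from Control OE within a table of the file. The comparison was chosen knowing that these genes look lower on the late days in the same libraries, so its p-values are a description of that pattern and no independent support for it. Of the 39 genes the effect was lower on the late days in 19 and higher in 0, where 11.1% of all genes were lower and 3.85% higher. The median was -0.33, against -0.037 over all genes, and 37 of the 39 were negative. The count was 17 to 27 over all fits without 1 library, and it was 27 without Control OE day 6 replicate 1. That library and *Mettl3* OE day 6 replicate 1 both stood apart.

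Of the 8 origin licensing genes 7 were among the 19, with *Mcm5* (-0.80, SE 0.124, adjusted p = 6.8e-05), *Mcm2* (-0.64, SE 0.118, adjusted p = 0.000385) and *Mcm3* (-0.63, SE 0.12, adjusted p = 0.00056) at the head and *Cdc6* (-0.205) as the exception. *Chaf1b* (-0.62), *Fen1* (-0.62) and *Mcm10* (-0.61) followed. In *Mcm5* the *Mettl3* OE effect was 0.40, -0.042, -0.43 and -0.81 over days 6, 9, 12 and 15. In *Fen1* it was 0.41, 0.17, -0.28 and -0.38 over the same days. *Mcm6* passed here (-0.435, SE 0.075, adjusted p = 0.000216) although it did not pass on any single day. The step from day 12 to day 15 in *Mettl3* OE minus that in Control OE gave 0 calls among the 39 in limma (0.0550% of all genes were lower), with 0 higher and 2 lower at an unadjusted p under 0.05. The same difference for the step from day 6 to day 9, added after the values were seen, also gave 0 calls (where 0.188% of all genes were lower and 0.777% higher), with 9 lower and 0 higher at an unadjusted p under 0.05 and a median of -0.21, against 0.050 over all genes.

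**Figure D3:**
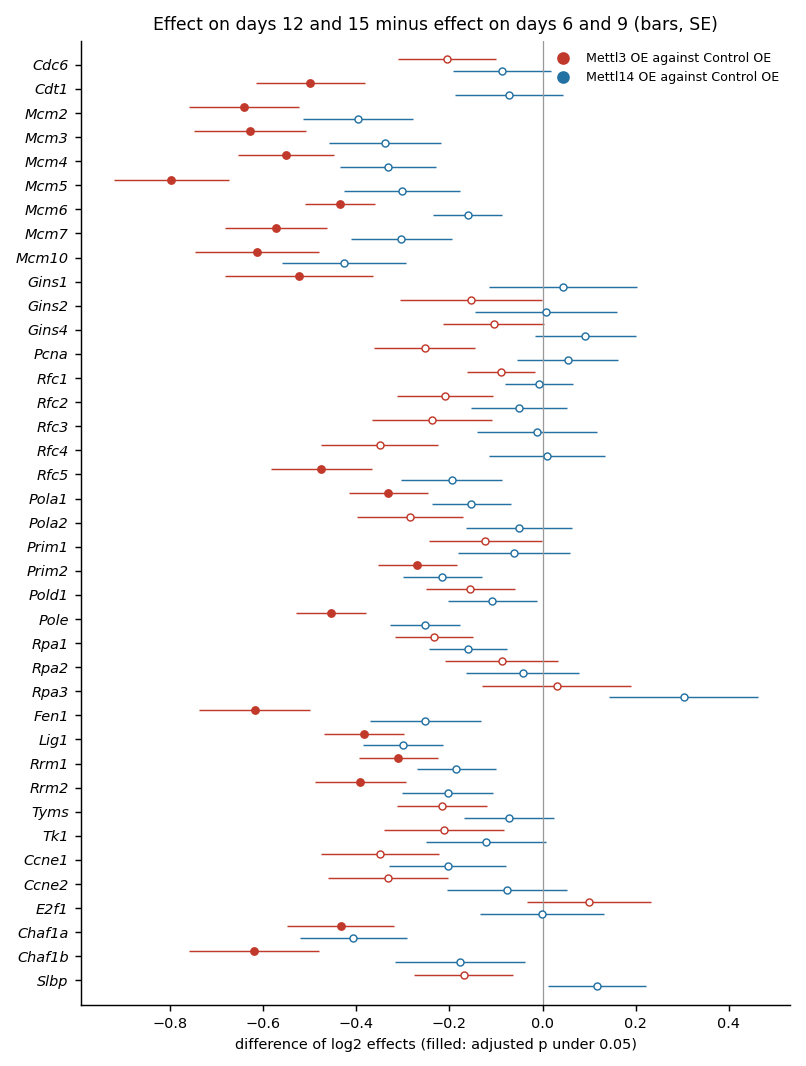
Effect on days 12 and 15 minus effect on days 6 and 9 (x axis, difference of log2 effects, bars SE) for each of the 39 genes (y axis), for *Mettl3* OE and *Mettl14* OE, each against Control OE; filled points passed an adjusted p of 0.05. In *Mettl3* OE 19 genes passed, with *Mcm5* at -0.80, and in *Mettl14* OE 0 passed (8 under median-ratio scaling and 10 under quantile normalization).

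In *Mettl14* OE limma called 0 of the genes against Control OE on each of the 5 days, in both directions. The share of all genes called was 0.0101% higher and 0.0101% lower on day 3, and 0.420% higher and 0.635% lower on day 15, with 0.00866%, 0.0170% and 0.0168% higher and 0% lower on days 6, 9 and 12. At an unadjusted p under 0.05 the 38 or 39 genes gave 2 higher and 0 lower on day 3, 0 higher and 0 lower on day 6, 0 higher and 0 lower on day 9, 0 higher and 14 lower on day 12 and 1 higher and 20 lower on day 15. On day 15 the difference was negative for 36 of 38 genes (median -0.19, against -0.044 over all genes), and in 20 of the 38 every *Mettl14* OE library was below every Control OE library, where 13.0% of all genes were. On day 12 it was negative for 37 of 38, but the median over all genes was shifted too (-0.15 for the 38 and -0.12 for all), and 17 of 38 lay below without overlap, where 21.7% of all genes did. The count of lower genes was 13 on day 12 without Control OE replicate 2, 4 on day 15 without Control OE replicate 2 and 3 without *Mettl14* OE replicate 1, and 2 on day 9 without *Mettl14* OE replicate 2. It was 5 on day 12 with all 48 libraries in the fit, and 3 on day 15 with median-ratio scaling, quantile normalization or a filter at 5 FPKM.

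*Mettl3* OE and *Mettl14* OE were set against the same Control OE libraries, so their values stand side by side and do not back each other. On day 15 *Mcm2* differed from Control OE by -0.60 in *Mettl3* OE and by -0.44 in *Mettl14* OE (7.202, 6.13 and 5.32 FPKM, adjusted p = 0.0527). *Mcm5* differed by -0.81 in *Mettl3* OE and by -0.42 in *Mettl14* OE (4.79, 4.197 and 3.48 FPKM, adjusted p = 0.0667). *Mcm3* differed by -0.60 in *Mettl3* OE and by -0.43 in *Mettl14* OE, *Mcm7* by -0.64 in *Mettl3* OE and by -0.345 in *Mettl14* OE. In *Gins1* the signs differed, with -0.40 in *Mettl3* OE and 0.24 in *Mettl14* OE. Summed over *Mcm2* to *Mcm7*, *Mettl14* OE had 48.8 ± 6.425 FPKM, and its 8 tested pluripotency markers gave 0 calls (26.3 to 40.7 FPKM).

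Compared directly, *Mettl3* OE was lower than *Mettl14* OE on day 15 in 1 gene of 38, where 0.635% of all genes were lower. That gene was *Gins1*, with 1.05, 0.851 and 1.44 FPKM in *Mettl3* OE, against 2.05, 2.65 and 2.16 FPKM in *Mettl14* OE (-0.64, SE 0.112, adjusted p = 0.0124), without overlap. The call was lost under median-ratio scaling, quantile normalization and no filter on low values, and without *Mettl14* OE replicate 2. On day 12 limma gave 0 calls between these arms, with 2 higher and 0 lower at an unadjusted p under 0.05 (where 3.65% of all genes were higher and 0.520% lower).

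On day 6, a comparison added after the values were seen, 5 genes of 39 were higher in *Mettl3* OE than in *Mettl14* OE and 0 lower, where 4.92% of all genes were higher. *Fen1* had 15.1, 12.4 and 12.6 FPKM in *Mettl3* OE, against 7.55, 8.66 and 8.42 FPKM in *Mettl14* OE (0.64, SE 0.132, adjusted p = 0.0288). *Mcm6* had 38.4, 38.5 and 36.01 FPKM in *Mettl3* OE, against 26.3, 28.1 and 27.5 FPKM in *Mettl14* OE (0.45, SE 0.081, adjusted p = 0.0204). In these genes, and in *Chaf1b* (0.62), *Tk1* (0.55) and *Mcm5* (0.465), no library of the arms overlapped, as in 24 of the 39 genes and 29.5% of all genes. The count was 2 without *Mettl3* OE replicate 1 or *Mettl14* OE replicate 2 and 0 without any of the other 4 libraries, and it was 17 with the replicate number as a block, 16 with all 48 libraries in the fit and 1 with no filter on low values. Of 10 epithelial markers 7 were higher (547 to 764 FPKM in *Mettl3* OE, against 269 to 430.1 FPKM in *Mettl14* OE) and 2 of 9 tested fibroblast markers lower (491 to 801 FPKM, against 888 to 1223 FPKM), and their part was not tested.

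The late-minus-early difference of *Mettl14* OE, added after the values were seen, gave 0 calls in limma among the 39 genes (where 0.00785% of all genes were lower and 0.0314% higher), with 14 lower and 0 higher at an unadjusted p under 0.05 and a median of -0.12, against 0.000 over all genes. This count depended on scaling, with 8 genes lower under median-ratio scaling and 10 under quantile normalization. The difference between the arms in this measure, also added, was tested too. *Gins1* (-0.57, SE 0.159, adjusted p = 0.035), *Mcm5* (-0.495, SE 0.124, adjusted p = 0.0179), *Cdt1* (-0.43, SE 0.117, adjusted p = 0.0308) and *Mcm6* (-0.27, SE 0.075, adjusted p = 0.0299) were lower in *Mettl3* OE than in *Mettl14* OE, 4 of 39, where 2.99% of all genes were. The count was 8 without *Mettl14* OE day 9 replicate 2 and 2 with no filter on low values. It was 1 without *Mettl3* OE day 15 replicate 1, *Mettl14* OE day 12 replicate 1, *Mettl3* OE day 6 replicate 2, *Mettl14* OE day 9 replicate 3 or *Mettl3* OE day 9 replicate 2. It was 2 without *Mettl14* OE day 15 replicate 1 or 2, *Mettl3* OE day 12 replicate 1 or 3, or *Mettl14* OE day 6 replicate 1. On this measure 7 of 10 epithelial and 5 of 8 pluripotency markers were lower and 4 of 10 fibroblast markers were higher. Their part was not tested.

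Within each arm the replication genes were lower on day 9 than on day 6, which share a table of the file. In *Mettl3* OE 35 of 39 genes were lower and 0 higher, where 24.5% of all genes were lower, and 16 also passed the fold of 1.5, as 4.50% of all genes did. In *Mettl14* OE 18 were lower (where 22.4% of all genes were) and 1 passed the fold (3.66%). In Control OE 28 were lower (where 26.6% of all genes were) and 5 passed the fold (4.15%). The medians were -0.49 in *Mettl3* OE, -0.27 in *Mettl14* OE and -0.35 in Control OE, against -0.013, -0.034 and -0.065 over all genes. In Control OE the count was 14 without day 6 replicate 1, the library that stood high, and 18 with only the compared libraries in the fit. The arms' counts were not tested against each other.

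*Rrm2*, the regulatory subunit of ribonucleotide reductase, which makes deoxynucleotides for S phase, changed most in all 3 arms. It had 21.98, 24.3 and 20.1 FPKM on day 9, against 66.2, 60.1 and 54.8 FPKM on day 6 in *Mettl3* OE (-1.41, SE 0.097, adjusted p = 5.79e-14). In *Mettl14* OE its values were 20.6, 26.2 and 22.7 FPKM on day 9 and 48, 48.4 and 48.1 FPKM on day 6 (-1.03, SE 0.097, adjusted p = 1.45e-10). In Control OE they were 24.1, 21.8 and 24.5 FPKM on day 9 and 59.4, 49.1 and 48.8 FPKM on day 6 (-1.12, SE 0.097, adjusted p = 1.57e-11). No day 9 library reached a day 6 library in any arm. *Mcm5* followed in *Mettl3* OE, with 7.701, 9.75 and 8.002 FPKM on day 9, against 20.9, 19.5 and 17 FPKM on day 6 (-1.09, SE 0.124, adjusted p = 5.82e-09), beside -0.58 in *Mettl14* OE and -0.65 in Control OE.

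**Figure D4:**
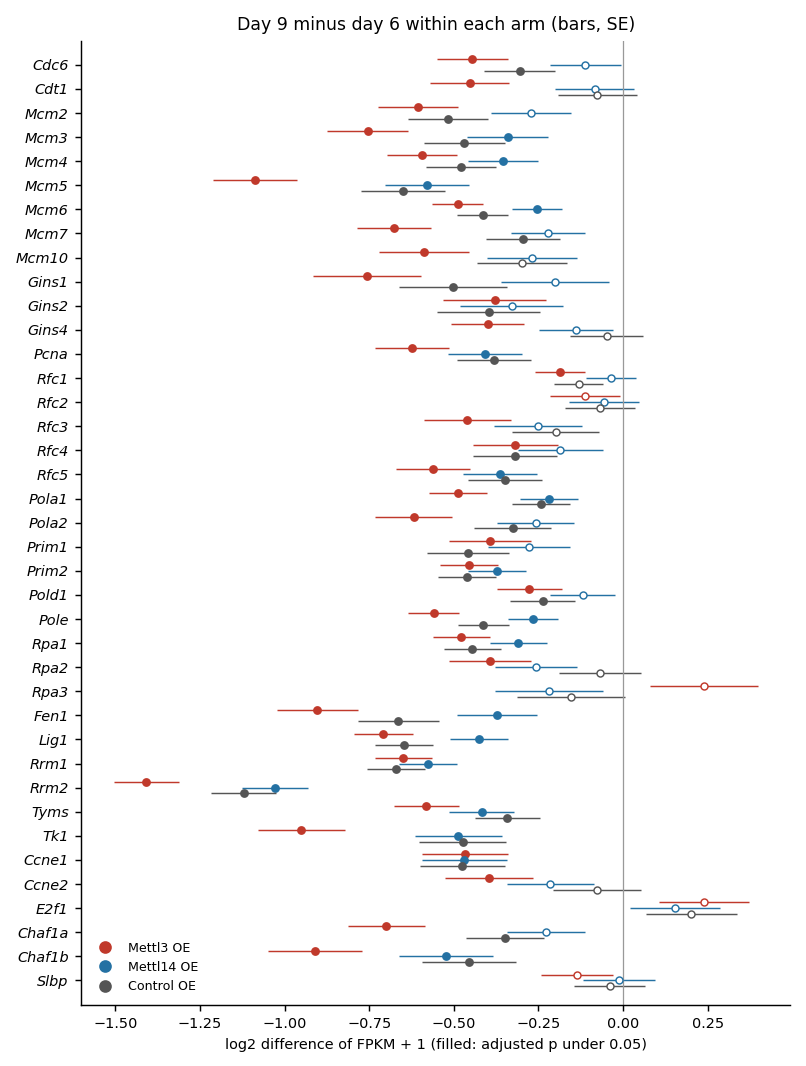
Day 9 minus day 6 (x axis, log2 of FPKM + 1, bars SE) for each of the 39 genes (y axis) in *Mettl3* OE, *Mettl14* OE and Control OE; filled points passed an adjusted p of 0.05. *Rrm2* lies at -1.41, -1.03 and -1.12 in these arms, and *E2f1* lies right of 0 in all 3.

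The lower levels were spread over the roles. *Tk1* had 16, 16.4 and 15.8 FPKM on day 9, against 33.7, 32.05 and 30.1 FPKM on day 6 in *Mettl3* OE (-0.95), and *Chaf1b* (-0.91), *Fen1* (-0.90) and *Gins1* (-0.76) also passed the fold there. In Control OE *Rrm1* (-0.67), *Fen1* (-0.66), *Mcm5* and *Lig1* (-0.65) passed it beside *Rrm2*, and *Mcm2* was lower by less (-0.52). In *Mettl14* OE *Rrm1* (-0.58), *Chaf1b* (-0.52), *Tk1* (-0.49) and *Ccne1* (-0.47) followed *Rrm2* and *Mcm5*. *Pcna* had 40.2, 44.7 and 41.7 FPKM on day 9, against 70.5, 66.8 and 59.7 FPKM on day 6 in *Mettl3* OE (-0.62), and was lower by 0.41 in *Mettl14* OE and by 0.38 in Control OE. *E2f1* stood at 0.24, 0.15 and 0.20 in *Mettl3* OE, *Mettl14* OE and Control OE and did not pass, and neither *Slbp* nor *Rfc2*, a clamp loader subunit, passed in any arm.

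All 30 genes of a mitosis list (kinases, kinesins and spindle checkpoint genes among them) were lower on day 9 in each arm too, with medians of -0.69 in *Mettl3* OE, -0.48 in *Mettl14* OE and -0.57 in Control OE. Of 10 fibroblast markers 10 were higher on day 9 in each arm (in *Mettl3* OE 1442 to 1598 FPKM, against 491 to 801 FPKM on day 6, and in Control OE 1982 to 2361 FPKM, against 1004 to 1308 FPKM on day 6). Of 10 epithelial markers 9 were higher in *Mettl3* OE and 10 in each of the other arms. Their part in the lower replication genes was not tested.

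Few genes differed between day 15 and day 12, which share another table. In *Mettl3* OE 2 of 39 genes were lower on day 15 and 0 higher, where 4.47% and 4.05% of all genes were. *Rrm2* had 9.46, 9.94 and 8.18 FPKM on day 15, against 10.9, 11.5 and 12.1 FPKM on day 12 (-0.30, SE 0.097, adjusted p = 0.0482), and *Rrm1* had 13.3, 13.25 and 11.55 FPKM on day 15, against 15.2, 15.5 and 16.3 FPKM on day 12 (-0.28, SE 0.085, adjusted p = 0.0317). In both genes the days did not overlap, but 2 of 39 genes is near the share of all genes that were lower. This count was 0 without any single library of the arm except day 15 replicate 2. In *Mettl14* OE *E2f1* was higher (6.73, 6.77 and 6.14 FPKM on day 15, against 4.73, 5.42 and 4.68 FPKM on day 12, 0.35, SE 0.133, adjusted p = 0.0443), where 28.4% of all genes were and the median over all genes was shifted by 0.15, and this call was lost under median-ratio scaling and quantile normalization and without *Mettl14* OE day 15 replicate 2 or day 12 replicate 3. In Control OE *Pold1* was higher (5.465, 5.04 and 5.48 FPKM on day 15, against 4.47, 3.44 and 3.97 FPKM on day 12, 0.36, SE 0.096, adjusted p = 0.00943), where 12.8% of all genes were, and it was not called without Control OE day 12 replicate 2. The days did not overlap in either gene.

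Control OE on day 3 differs from MEF in doxycycline, the empty vector and the ES medium with LIF, and these cannot be told apart. It was lower than MEF in 14 of 39 genes and higher in 2, where 17.2% of all genes were lower and 34.0% higher. The median was -0.12, against 0.090 over all genes, and the count of lower genes depended on scaling, with 23 under median-ratio scaling and 23 under quantile normalization. Of the 39 genes 3 were also lower by the fold of 1.5, which is near the share of all genes that were (7.40%). *Ccne1*, a cyclin that drives entry into S phase, had 7.05, 4.59 and 5.38 FPKM on day 3, against 13.1, 11.15 and 12.3 FPKM in MEF (-0.996, SE 0.126, adjusted p = 1.39e-08). *Pold1* had 2.77, 2.24 and 2.11 FPKM on day 3, against 4.49, 3.64 and 4.94 FPKM in MEF (-0.67, SE 0.096, adjusted p = 2.18e-07). *E2f1* had 3.82, 2.835 and 3.5 FPKM on day 3, against 5.01, 5.835 and 6.145 FPKM in MEF (-0.61, SE 0.133, adjusted p = 0.000199). The groups were apart in all 3 genes.

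*Gins2* had 12.02, 11.85 and 10.3 FPKM on day 3, against 13.5, 16.2 and 21.4 FPKM in MEF (-0.52, SE 0.152, adjusted p = 0.00427). *Cdc6* had 1.001, 0.8235 and 0.8904 FPKM on day 3, against 1.56, 1.798 and 1.63 FPKM in MEF (-0.485, SE 0.105, adjusted p = 0.000175). *Fen1* had 15.8, 15.5 and 17.3 FPKM on day 3, against 20.8, 23.03 and 25.6 FPKM in MEF (-0.485, SE 0.119, adjusted p = 0.000748). These groups did not overlap either, and *Slbp*, *Tyms*, *Chaf1a*, *Cdt1*, *Pole*, *Rfc3*, *Mcm4* and *Rfc2* were the other 8, between -0.48 and -0.25. *Rfc1*, the large subunit of the clamp loader, was higher on day 3 (11.8, 11.3 and 12.3 FPKM on day 3, against 8.05, 7.76 and 9.29 FPKM in MEF, 0.455, SE 0.073, adjusted p = 1.66e-06), and so was *Rrm2* (33.5, 33.02 and 39.4 FPKM on day 3, against 27.6, 24.1 and 29.2 FPKM in MEF, 0.375, SE 0.097, adjusted p = 0.0013). *Mcm6* did not pass (31.2, 30.6 and 29.7 FPKM on day 3, against 29.6, 30.25 and 32.2 FPKM in MEF, -0.007), nor did *Pcna* (38.4, 46.5 and 38.8 FPKM on day 3, against 36.7, 40.1 and 39.2 FPKM in MEF, 0.086). Every day 3 library lay below every MEF library in 16 of 39 genes and above in 3, where 19.8% and 36.9% of all genes did.

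**Figure D5:**
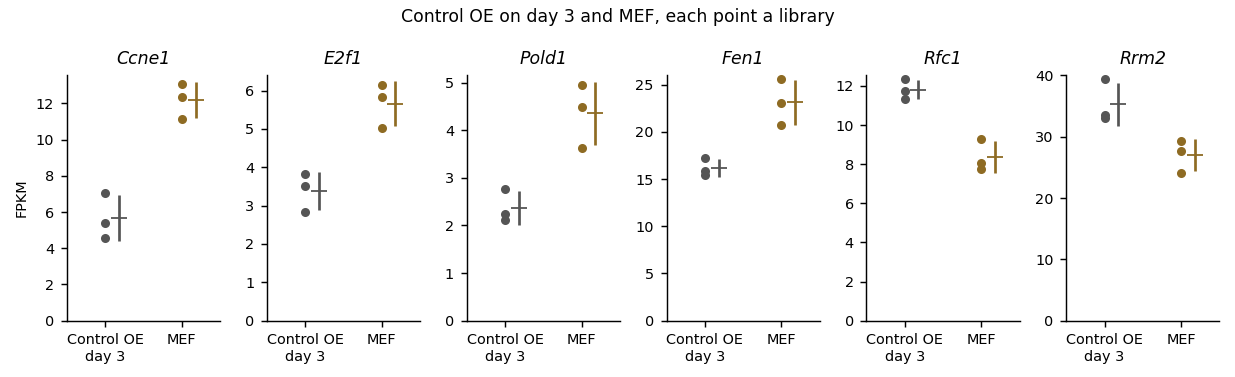
FPKM (y axes, from 0) of 6 genes in Control OE on day 3 and in MEF (x axis), with a point for each of 3 libraries and the mean and SD beside them. *Ccne1*, *E2f1*, *Pold1* and *Fen1* sit lower on day 3, and *Rfc1* and *Rrm2* higher.

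Upstream of these genes, 6 of 11 G1 cyclins, kinases and pocket proteins were higher and 3 lower on day 3 than in MEF, where 34.0% of all genes were higher and 17.2% lower. The D cyclins *Ccnd2* (1.90, SE 0.122) and *Ccnd1* (1.24, SE 0.119), which start the passage through G1, and *Rb1*, the retinoblastoma protein that holds E2F back (1.72, SE 0.066), were higher. Of 6 tested CDK inhibitors 2 were higher and 2 lower, with *Cdkn1a*, the p53 target p21, at 1.87, SE 0.084, and *Cdkn1c*, an imprinted inhibitor, at -1.225, SE 0.181. Of 10 fibroblast markers 9 were lower on day 3 (80.3 to 81.9 FPKM summed, against 214 to 226 FPKM in MEF), and 11 of 30 mitosis genes were lower and 1 was higher, beside the same shares of all genes. Their part in the lower replication genes was not tested.

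Other genes of the pathway were read from lists of 32 further fork and origin genes and 30 further S phase genes that E2F regulates. In *Mettl3* OE on day 15, 7 of 27 tested fork and origin genes were lower than in Control OE and 0 higher (median -0.20), where 12.1% of all genes were lower and 2.67% higher (median -0.084). They included *Ticrr* (-0.48), which acts in loading CDC45 at origins, *Orc2* (-0.36), a subunit of the origin recognition complex, and *Timeless* (-0.36) and *Wdhd1* (-0.35), which travel with the fork. Of 25 tested S phase genes 13 were lower and 0 higher (median -0.27). They were led by *Mybl2* (-1.115, SE 0.14, adjusted p = 0.000612), a transcription factor of cycling cells, *Nasp* (-0.81), a histone chaperone, *Uhrf1* (-0.76), which helps DNA methylation pass through replication, and *Cdca7* (-0.68). Of 30 mitosis genes 11 were lower (median -0.21). *Ccnd2* (-0.54) and *Cdk4* (-0.37) were lower among 11 G1 genes, and *Cdkn1c* (-0.95, SE 0.091, adjusted p = 2.21e-05) among 6 CDK inhibitors. In *Mettl14* OE on day 15 *Orc2* (-0.43) was the fork and origin gene that passed, *Uhrf1* (-0.555) the S phase gene and *Cdkn1c* (-0.525) the CDK inhibitor, 1 of each list, where 0.635% of all genes were lower.

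For the late-minus-early difference of *Mettl3* OE, 13 of 32 fork and origin genes were lower and 1 was higher, 18 of 30 S phase genes were lower and 0 higher, and 14 of 30 mitosis genes were lower, where 11.1% of all genes were lower and 3.85% higher. *Mybl2* was at -1.29, SE 0.13, adjusted p = 5.76e-08. *Pold4*, a small subunit of polymerase delta, was the fork gene that was higher (0.67, SE 0.149, adjusted p = 0.00221). On this measure 8 of 8 tested pluripotency markers, 3 of 10 epithelial markers and 4 of 9 keratinocyte markers were lower, and 5 of 10 fibroblast markers were higher. Their part in it was not tested.

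Across the borders of the tables only values can be given, since the day and the table change together. From day 3 to day 6 in Control OE the median log2 difference was 0.31 over the 39 genes, which ran between -0.76 (*Mcm10*) and 2.03 (*Rfc2*), and 0.825 over all genes. In Control OE *Mcm5* had 17.2, 12.6 and 13.4 FPKM on day 6, against 4.005, 3.35 and 3.57 FPKM on day 3, a log2 difference of 1.72. *Rfc2*, *Lig1* (1.81) and *Prim1* (1.68) also lay above the median over all genes, while *Mcm2* (-0.11), *Mcm6* (-0.025) and *Fen1* (-0.67) lay below it. *Mcm5* made up 12.5 ± 0.0584% of the summed helicase subunits in Control OE on day 6 and 3.34 ± 0.217% on day 3 (SD, n = 3 each). Day 12 minus day 9 in Control OE had a median of -0.35 over the 39 genes and -0.070 over all genes, and gave -0.56 for *Mcm5*, -0.24 for *Mcm2*, -0.42 for *Mcm6*, -0.35 for *Rfc2*, -0.33 for *Lig1* and -0.51 for *Prim1*.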

How the data were processed

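RNA-seq libraries were made with a stranded mRNA kit. The submitters' processing notes name TopHat2 2.1.1, Cufflinks 2.2.1 and the build mm9; the deposited FPKM values per gene and library are the authors' output of these tools, and the annotation is not given in the sources used here. The table holds no counts. It has 24013 lines, of which 1 exact copy was dropped and lines of the same symbol were summed. Its 3 joined tables have median FPKM sums of 234441, 392245 and 432182. The fragment estimate used 2105 genes with 1 transcript and GENCODE M21 lengths, which are not the authors' annotation, so it is approximate and no interval was built on it.

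Libraries were grouped by their labels. A gene entered a fit when 3 or more of the fit's libraries had 1 FPKM or more. limma 3.58.1 (R 4.3.3, mean-variance trend, robust moderation) was run on log2(FPKM + 1), and p-values were adjusted by Benjamini-Hochberg over every gene of the fit. Folds are of FPKM + 1, which understates the change of low genes. Arms were compared on a day over its 9 libraries; comparisons of days, and of effects, came from a fit of all 48. The study states thresholds (fold 1.5, false discovery rate 0.05) but, in the text at hand, no test. A gene is called at an adjusted p under 0.05. Values of every library are given for up to 6 called genes per comparison with the largest change and for the most abundant gene of a role, and up to 4 called genes of a further list are named; other genes given library by library were picked after their values were seen. The 39 genes, the other lists and the comparisons were chosen with earlier results of these data known, and 4 comparisons were added after the values were seen. Alternatives were a pseudocount of 0.1, no filter or a filter at 5 FPKM, median-ratio scaling, quantile normalization, a replicate block, another choice of libraries in the fit, and leaving out each library. The fits were tested on simulated data. Tables and figures were made in Python 3.11.15 (matplotlib 3.10.9, pandas 2.3.3, NumPy 2.4.6).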

Additional observations from a re-analysis of the deposited data

Results flagged for a closer look

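For 19 of the 39 genes the effect of *Mettl3* OE against Control OE differed between the late and the early days, by a test of the difference itself (limma, adjusted p under 0.05 over all genes; 11.1% of all genes were lower by this test). On the log2 scale the late effect minus the early effect was *Mcm5* (-0.797), *Mcm2* (-0.641), *Mcm3* (-0.628), *Chaf1b* (-0.62), *Fen1* (-0.618), *Mcm10* (-0.613), *Mcm7* (-0.572), *Mcm4* (-0.551), *Gins1* (-0.523), *Cdt1* (-0.499), *Rfc5* (-0.475), *Pole* (-0.454), *Mcm6* (-0.435), *Chaf1a* (-0.433), *Rrm2* (-0.391), *Lig1* (-0.383), *Pola1* (-0.331), *Rrm1* (-0.31) and *Prim2* (-0.269). For 4 genes the difference between *Mettl3* OE and *Mettl14* OE changed between the same days, with *Gins1* (-0.567), *Mcm5* (-0.495), *Cdt1* (-0.427) and *Mcm6* (-0.274), where 2.99% of all genes were lower. The first comparison was chosen knowing that these genes look lower on the late days in the same libraries, and the second was added after the values were seen. All these differences are negative, so *Mettl3* OE stood lower, relative to the other arm, on days 12 and 15 than on days 6 and 9. The arms compared over these days share libraries between both tests.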

How the results depend on the processing

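For the up to 6 called genes per comparison with the largest change, no difference changed sign under any alternative; other single genes were not followed through the alternatives. Calls among these largest changes were lost most often with a library left out (106 gene and fit pairs) or with no filter on low values (16), and otherwise in 1 to 3 per alternative. Scaling shifted medians near 0 across it. On day 9 the median of *Mettl3* OE against Control OE over the 39 genes was -0.021 with median-ratio scaling, against 0.001 as reported. Over all genes the median of *Mettl3* OE against Control OE on day 15 was 0.014 with median-ratio scaling, against -0.084, and that of *Mettl14* OE on day 15 against day 12 was -0.013 with quantile normalization, against 0.146. On day 15 the median of *Mettl3* OE over the replication genes was -0.186 and -0.189 with the 2 scalings, against -0.29. The counts that moved were these. For *Mettl3* OE against Control OE, day 3 gave 1 higher with no filter and 1 lower with the replicate block; day 6 gave 0 higher with no filter, 7 with median-ratio scaling, 8 with quantile normalization, 8 with the replicate block and 9 with all 48 libraries in the fit; day 9 gave 1 higher with median-ratio scaling, quantile normalization or all 48 libraries. Day 12 gave 1 lower with no filter and 8 with median-ratio scaling or quantile normalization, and day 15 gave 11 lower with a filter at 5 FPKM (22 of the genes tested), 11 with median-ratio scaling and 12 with quantile normalization. For *Mettl14* OE against Control OE, day 12 gave 5 lower with all 48 libraries, and day 15 gave 3 with the 5 FPKM filter, median-ratio scaling or quantile normalization and 1 with all 48 libraries. For *Mettl3* OE against *Mettl14* OE, day 12 gave 1 lower with either scaling, day 15 gave 0 lower with no filter, the 5 FPKM filter or either scaling, and day 6 gave 1 higher with no filter, 17 with the replicate block and 16 with all 48 libraries. Control OE day 3 against MEF gave 1 higher with quantile normalization and 23 lower with either scaling. For day 15 against day 12, *Mettl3* OE gave 1 lower with a pseudocount of 0.1, no filter or the 5 FPKM filter. *Mettl14* OE gave 0 higher with that pseudocount, no filter or either scaling and 3 with only the compared libraries, and 4 lower with median-ratio scaling and 5 with quantile normalization. Control OE gave 2 higher with only the compared libraries, and 2 lower with median-ratio scaling and 5 with quantile normalization. For day 9 against day 6, Control OE gave 18 lower with only the compared libraries. The late-minus-early difference gave 8 and 10 lower for *Mettl14* OE under median-ratio scaling and quantile normalization, and 2 lower for *Mettl3* OE minus *Mettl14* OE with no filter. The cause was not tested.

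With 1 library left out the counts ranged as follows. *Mettl3* OE against Control OE had 1 to 2 higher on day 3, 0 to 12 higher on day 6, 0 to 10 lower on day 12 and 8 to 18 lower on day 15. *Mettl14* OE had 0 to 2 lower on day 9, 0 to 13 on day 12 and 0 to 4 on day 15. *Mettl3* OE against *Mettl14* OE had 0 to 2 higher on day 6, 0 to 1 higher on day 12 and 0 to 1 lower on day 15. Day 3 against MEF had 2 to 3 higher and 11 to 12 lower. Day 9 against day 6 had 0 to 1 higher and 29 to 34 lower in *Mettl3* OE, 14 to 27 lower in *Mettl14* OE, and 0 to 1 higher and 14 to 30 lower in Control OE. Day 15 against day 12 had 0 to 2 lower in *Mettl3* OE, 0 to 2 in either direction in *Mettl14* OE and 0 to 1 higher in Control OE. The late-minus-early counts were 17 to 27 lower for *Mettl3* OE and 1 to 8 for *Mettl3* OE minus *Mettl14* OE. Where an arm kept 2 libraries, the fit pooled its spread with the other groups.

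Replicate numbers showed no steady pairing of the libraries. Same-numbered libraries of a day deviated together with r from -0.418 to 0.444. This r was over 0.1 in 0, 4, 1, 3 and 2 of 9 pairs on days 3, 6, 9, 12 and 15. Its mean on day 6 was 0.095, against -0.047 for pairs of other numbers. A shared replicate effect on day 6 was not tested, and the day 6 counts rose with the replicate block, as given above. With the replicate block *Mettl3* OE on day 15 gave 17 lower. Limits are the 3 libraries per group, FPKM without counts, a median over all genes that was not 0 in some comparisons, and low genes such as *Cdc6* and *Mcm10*, whose log2 differences are pulled toward 0 by the pseudocount.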
